A study of Mus musculus with 7 samples.

Results

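Macrophages are the main immune cells of the testis, and 34 genes that mark them or their relatives were followed in whole testis RNA of mice lacking Phf13. The genes were a list of symbols, each represented by the brightest of its probe sets that carry that gene's symbol alone. All 34 were measured, out of 18194 genes tested on the array. The study compared Phf13 knockout mice (3 arrays) with wild type mice (4 arrays), all 15 to 20 weeks old. The protein made from Phf13 reads methylated histone H3 through its PHD finger. The labels name no strain, no knockout allele and no Cre, and do not say that each array is a separate animal, so p-values here measure only how far these samples differ among themselves, and some of that may be technical. Phf13 itself had log2 signals of 6.04, 5.83 and 5.71 in knockout and 8.54 to 8.73 in wild type, which matches the labels.

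Resident macrophages of the testis lie in the interstitium beside the testosterone-producing Leydig cells, and a separate population carrying class II molecules lies on the wall of the seminiferous tubules. Their survival depends on the receptor Csf1r, and they engulf debris, secrete complement C1q and carry scavenger receptors such as Cd163 and Mrc1. Monocytes that enter from blood use Ccr2 and the integrin Itgam with Itgb2, and antigen presentation uses class II molecules with the invariant chain Cd74. The 34 genes were placed by these roles into 12 genes of resident interstitial macrophages, 9 of monocyte-derived cells, 4 of antigen presentation and 9 shared by myeloid cells or all leukocytes. The lysozymes, placed with monocyte-derived genes, are made by resident macrophages too.

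Macrophage genes were mostly higher in knockout testis, and 8 of the 34 rose: Lyz1, Lyz2, C1qc, C1qa, Csf1r, Mrc1, Cd74 and Cd53. By limma 0 fell, 26 did not pass the adjusted p of 0.05, and of all genes tested 9.07% rose and 7.05% fell. Before adjustment, 19 members were higher and 1 lower at p under 0.05. The numbers that open the array titles form 3 sets of unstated meaning, each holding both genotypes. With these sets as a block, Lyz1, Lyz2 and Cd53 of the 8 still passed, while C1qc, Cd74, C1qa, Csf1r and Mrc1 did not (limma adjusted p = 0.0540 to 0.0738). The share of members that rose was 23.5%, which counts Lyz1 and Lyz2 separately although they may share signal. The log2 difference was positive for 28 members and negative for 6, with a median of 0.37 over the 34 and of −0.045 over all genes. In 12 members every knockout array lay above every wild type array, which held for 12.8% of all genes, and in 0 members did every knockout array lie below, which held for 15.2%. In RNA of a whole organ, more macrophages and more RNA per macrophage cannot be told apart. The rise was not particular to macrophage genes. Median log2 differences were 0.61 for Leydig, 0.59 for Sertoli, 0.68 for fibroblast and 0.38 for contractile genes. They were 0.10 for endothelial and −0.06 for germ cell genes, and the part of these other cells was not tested. The calls depended on knockout 3. Without it 0 members passed by limma, the 8 genes reaching adjusted p of 0.0563 to 0.151, while 0.528% of all genes still rose. The members' median log2 difference was then 0.245, and 11 members were higher at unadjusted p under 0.05.

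**Figure D1:**
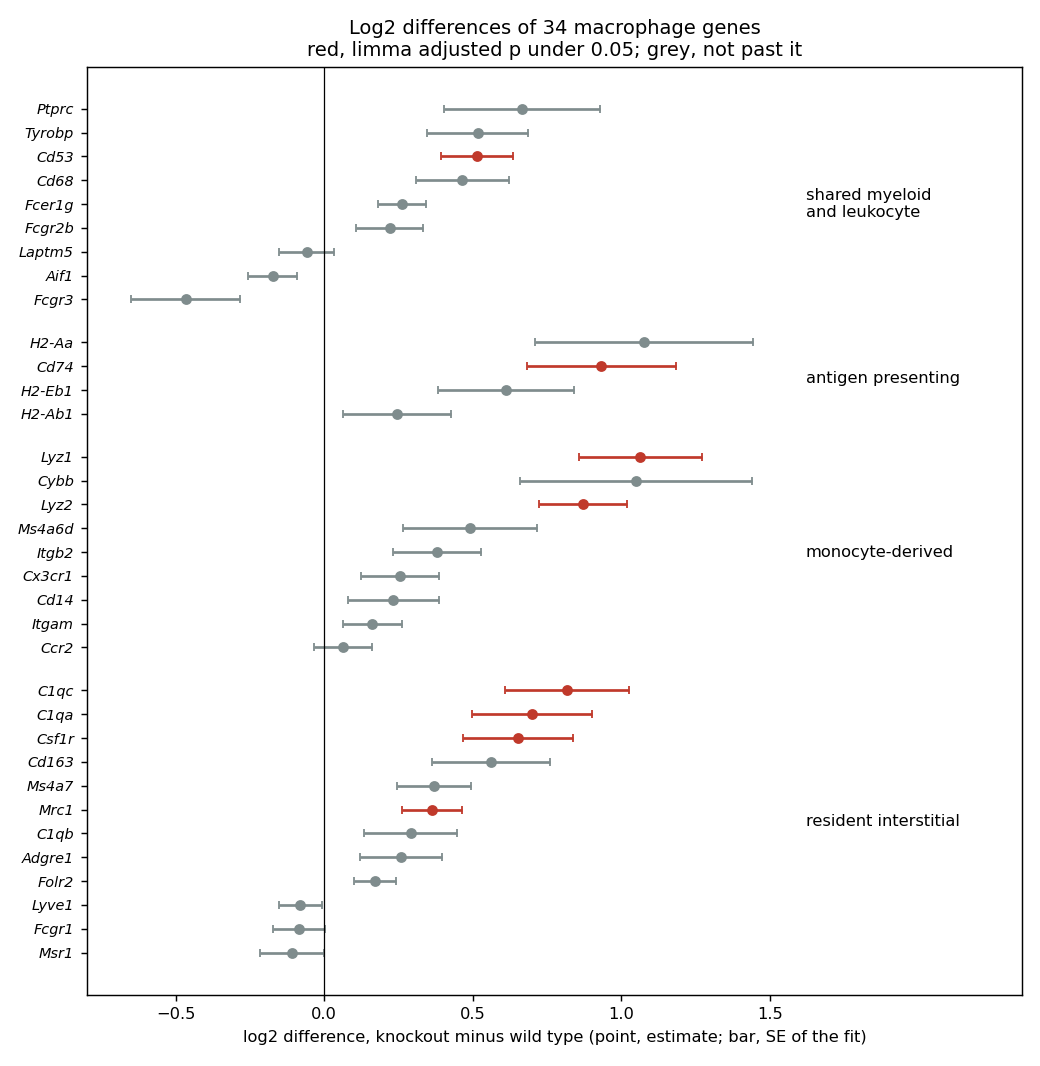
Log2 difference between knockout and wild type (horizontal axis) for each of the 34 macrophage genes, grouped by role, with the standard error of the limma fit as bars. The 8 genes in red rose, and Fcgr3 lay lowest at −0.47 without passing the threshold.

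The promoters of 4 of the genes that rose are shown because they hold 1 short word in common before the start. They are the 250 bases before the RefSeq start on build GRCm38.p6, read 5′ to 3′ on the strand of the gene: chr10:117282273-117282522 and chr10:117292869-117293118 on the minus strand of chromosome 10, chr4:136892915-136893164 on the minus strand and chr2:14229164-14229413 on the plus strand. Capitals mark AGGAAGT, here on the opposite strand as ACTTCCT, which is a core bound by ETS factors such as PU.1 (gene Spi1), the master regulator of myeloid cells.
Lyz2: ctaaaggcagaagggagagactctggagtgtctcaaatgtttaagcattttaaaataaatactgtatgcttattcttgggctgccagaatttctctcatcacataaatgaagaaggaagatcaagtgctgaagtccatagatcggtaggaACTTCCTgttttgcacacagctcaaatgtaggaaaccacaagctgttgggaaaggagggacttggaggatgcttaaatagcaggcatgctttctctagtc
Lyz1: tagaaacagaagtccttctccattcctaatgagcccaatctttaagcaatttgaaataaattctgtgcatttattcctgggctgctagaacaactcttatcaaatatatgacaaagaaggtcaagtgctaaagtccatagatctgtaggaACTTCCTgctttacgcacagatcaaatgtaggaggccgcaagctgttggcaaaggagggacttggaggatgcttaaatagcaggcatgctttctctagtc
C1qc: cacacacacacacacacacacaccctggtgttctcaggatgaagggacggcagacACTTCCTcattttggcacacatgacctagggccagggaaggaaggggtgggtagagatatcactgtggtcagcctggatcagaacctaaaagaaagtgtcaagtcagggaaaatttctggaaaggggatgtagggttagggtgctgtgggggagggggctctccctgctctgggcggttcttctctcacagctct
Mrc1: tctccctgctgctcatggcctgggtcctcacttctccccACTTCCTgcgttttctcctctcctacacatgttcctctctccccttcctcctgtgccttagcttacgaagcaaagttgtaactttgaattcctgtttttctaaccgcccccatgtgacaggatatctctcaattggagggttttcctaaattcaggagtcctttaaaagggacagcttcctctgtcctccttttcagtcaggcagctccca

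The capitals begin 100 bases before the start in both Lyz2 and Lyz1, 195 bases before it in C1qc and 211 bases before it in Mrc1. Lyz1 and Lyz2 are neighbouring copies, and without gaps 201 of 300 letters of their promoter windows, from 250 bases before to 50 after the start, were identical. Promoter windows were at hand for 23 members, 5 of them genes that rose. On either strand, AGGAAGT stood in 9 of the 23 and in 5 of the 5, against 9.35% of 32851 promoter windows. In Cd53, the fifth gene, it lies just after the start. The longer GAGGAAGT, which contains it, stood in C1qc and Cd53, 2 of the 23 (3.20% of all windows). The overlapping words GAGGAA and GGAAGT stood in 13 members each (28.3% and 23.8% of windows), CCAAT in 11 (37.4%), TATAAA in 2 (13.6%), and CACGTGAC (2.25%) and TTGCGCAA (0.183%) in 0. The word marked was chosen after all 8 had been counted, so these shares are a description and no test.

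The lysozyme genes, whose products digest bacterial cell walls, gave the steadiest differences. Lyz2 had log2 signals of 8.43, 7.96 and 8.44 in knockout testis and 7.29, 7.17, 7.59 and 7.57 in wild type testis. Every knockout array lay above every wild type array, knockout 2 being the lowest of the knockouts. The log2 difference was 0.87 (SE 0.15), or 1.83-fold, with a limma adjusted p of 0.0133. An exact permutation over the 35 possible groupings of the arrays, two-sided, gave p = 0.0286, the least it can give. This and the other exact permutations ignored the title-number sets. With 1 array left out in turn, Lyz2 passed in 6 of 7 fits and missed only without knockout 3 (adjusted p = 0.0563).

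Lyz1 had signals of 9.05, 8.62 and 9.32 in knockout and 7.87, 7.49, 8.18 and 8.19 in wild type. Again the groups did not overlap. Its log2 difference was 1.06 (SE 0.21, limma adjusted p = 0.0168; exact permutation p = 0.0286), and it passed in 4 of the 7 fits with 1 array left out. A second probe set of Lyz1 gave 0.97, and the last, with signals of 3.47 to 3.80 on all arrays, gave −0.04. The first and second have names ending in x_at, which Affymetrix uses for probes that can match related transcripts, so the lysozymes may share signal and are not independent.

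**Figure D2:**
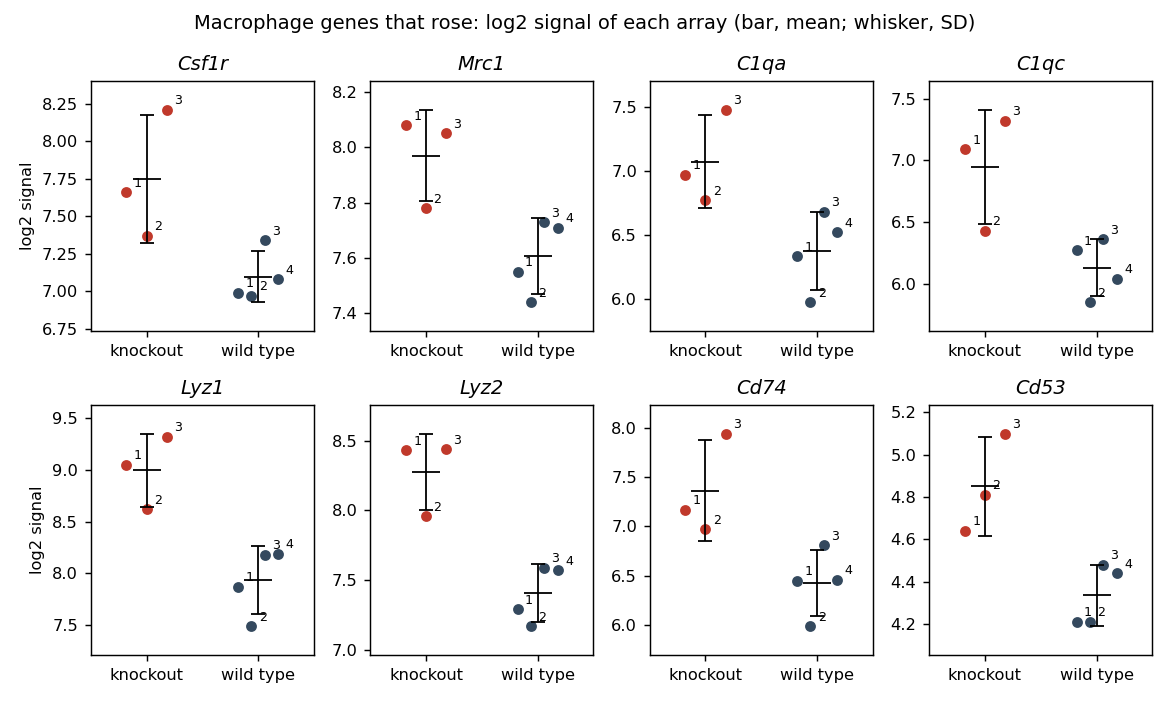
Log2 signal (vertical axis, scaled for each gene) of the 8 macrophage genes that rose, in 3 knockout arrays (red) and 4 wild type arrays (dark), numbered by replicate, with mean and SD. Knockout arrays lay above all wild type arrays in each of the 8, and knockout 3 was the highest array for 7 of them, the exception being Mrc1.

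Among genes of resident macrophages, 4 of 12 rose, 0 fell and the median log2 difference was 0.33. Csf1r, the receptor for the growth factor Csf1, had signals of 7.66, 7.37 and 8.21 in knockout and 6.99, 6.97, 7.34 and 7.08 in wild type. Knockout 2 and wild type 3 nearly met at the edge of the groups. The log2 difference was 0.65 (SE 0.18, limma adjusted p = 0.0463, and 0.0658 with the title-number sets as a block), and its other probe sets gave 0.42 and 0.10.

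C1qa, C1qb and C1qc encode the chains of C1q, the recognition molecule of the classical complement pathway. C1qc had signals of 7.09, 6.43 and 7.32 in knockout against 6.27, 5.85, 6.36 and 6.04 in wild type, a log2 difference of 0.82 (SE 0.21, limma adjusted p = 0.0341, and 0.0540 with the block). C1qa had 6.97, 6.77 and 7.48 against 6.33, 5.97, 6.68 and 6.52, a log2 difference of 0.70 (SE 0.20, adjusted p = 0.0491, and 0.0622 with the block; exact permutation p = 0.0571). In both genes wild type 2 was the lowest array and knockout 3 the highest. C1qb had 7.61, 7.59 and 8.21 against 7.59, 7.28, 7.59 and 7.59, a difference of 0.29 (limma adjusted p = 0.231). Knockout 3 stood high and wild type 2 low, and the other 5 arrays were nearly equal. Its other probe sets gave 0.22 and 0.25. All 3 genes lie on chromosome 4, which also carries Phf13.

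Mrc1, the mannose receptor of resident macrophages, had signals of 8.08, 7.78 and 8.05 against 7.55, 7.44, 7.73 and 7.71, a rise of 0.36 on the log2 scale (SE 0.10, limma adjusted p = 0.0460, and 0.0738 with the block). Cd163, which takes up haemoglobin complexes, had 4.86, 4.18 and 4.93 against 4.07, 4.01, 3.86 and 4.44, a difference of 0.56 (adjusted p = 0.0865). Knockout 2 lay inside the wild type range of Cd163. Ms4a7, a membrane protein gene of macrophages, differed by 0.37 (adjusted p = 0.0766), and the folate receptor gene Folr2 by 0.17 (adjusted p = 0.129), with all knockout arrays of Folr2 (5.38 to 5.60) above wild type (5.25 to 5.35). Adgre1, which encodes the antigen most used to stain mouse macrophages, had 6.15, 6.18 and 6.75 against 6.05 to 6.15, so that only knockout 3 stood clear (0.26, adjusted p = 0.227).

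The other 3 resident genes had small negative differences. They were −0.08 for Lyve1, a hyaluronan receptor gene of perivascular macrophages and lymphatic vessels, −0.085 for the high-affinity IgG receptor gene Fcgr1 and −0.11 for the scavenger receptor gene Msr1, with adjusted p from 0.456 to 0.514. The Lyve1 probe set read 3.11 on 5 of 7 arrays and 2.88 to 3.10 on the others, and its second probe set read 2.29 to 2.78. These readings lie far below the array medians of 5.01 to 5.08, and no detection calls were used, so the Lyve1 difference carries little information.

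Of the 9 monocyte-derived genes, only the lysozymes rose (22.2%, where 9.07% of all genes rose), 0 fell and 7 did not pass. Lyz1 and Lyz2 may share signal, so they do not count as independent genes in this share. The median log2 difference of the 9 genes was 0.38. Cybb, the X-linked catalytic subunit of the phagocyte oxidase, had signals of 4.62, 4.97 and 6.40 in knockout and 3.83, 4.27, 4.32 and 4.70 in wild type. Knockout 3 stood far above the rest, knockout 1 overlapped wild type, and the log2 difference of 1.05 carried an SE of 0.39 (limma adjusted p = 0.1). Without knockout 3 it was 0.52, and with all arrays the other Cybb probe sets gave 0.46 and 0.03. Ccr2, the receptor that brings monocytes out of bone marrow, differed by 0.06 (SE 0.10, adjusted p = 0.681), with 6.09, 5.69 and 5.87 against 5.69 to 5.87. The groups of Ccr2 overlapped fully but for knockout 1. Its other probe sets read 2.58 to 3.31, below the array medians of 5.01 to 5.08, and gave differences of 0.05 to 0.19.

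The beta2 integrin gene Itgb2 had 4.60, 4.48 and 4.91 against 4.00 to 4.50, a difference of 0.38 (adjusted p = 0.115), and its partner Itgam, also called Cd11b, differed by 0.16 at signals of 2.91 to 3.28. Cx3cr1, the fractalkine receptor gene, differed by 0.25 (adjusted p = 0.213), the endotoxin co-receptor gene Cd14 by 0.23 and Ms4a6d by 0.49 (adjusted p = 0.167). In Ms4a6d, knockout 1 (3.73) and knockout 3 (3.83) were high, and knockout 2 (2.78) was the lowest of all arrays. In 7 of these 9 genes the mean signal was below the median of all genes tested.

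Antigen presentation genes had the largest median log2 difference of the groups, 0.77 over 4 genes, but only Cd74 rose. That was 25% of the group, where 9.07% of all genes rose. Cd74, the invariant chain that guides class II molecules, had 7.17, 6.97 and 7.94 against 6.45, 5.99, 6.81 and 6.46, a difference of 0.93 (SE 0.25, limma adjusted p = 0.0396, and 0.0585 with the title-number sets as a block). H2-Aa, a class II alpha chain, had 7.11, 7.24 and 8.58 against 6.69, 5.95, 7.0 and 6.63. The groups of H2-Aa did not overlap, but the log2 difference of 1.08 had an SE of 0.37 (adjusted p = 0.0798; exact permutation p = 0.0286). Its 3 other probe sets gave 0.40 to 0.69.

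H2-Eb1, a class II beta chain, had 6.47, 6.38 and 7.25 against 6.01, 5.71, 6.40 and 6.23, a difference of 0.61 (adjusted p = 0.102). H2-Ab1, the beta chain that pairs with H2-Aa, had 7.39, 7.33 and 8.16 against 7.32 to 7.41, so that knockout 3 alone was high. The H2-Ab1 difference of 0.24 (adjusted p = 0.372) became −0.02 without knockout 3. All 4 of these genes were highest in knockout 3.

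Of the 9 genes shared by myeloid cells or all leukocytes, 1 rose and 0 fell, with a median log2 difference of 0.26. The share that rose, 11.1%, was near the 9.07% of all genes. Cd53, a tetraspanin of all leukocytes, had 4.64, 4.81 and 5.10 against 4.21, 4.21, 4.48 and 4.44, a difference of 0.51 (SE 0.12, limma adjusted p = 0.0267). Its knockout arrays all stood above wild type, and its dim second probe set (2.26 to 2.57) gave −0.10. Tyrobp and Fcer1g encode the signalling adaptors of myeloid receptors. Tyrobp had 5.97, 6.0 and 6.70 against 5.58 to 5.87 (0.52, adjusted p = 0.0742) and Fcer1g 6.47, 6.21 and 6.51 against 6.10 to 6.20 (0.26, adjusted p = 0.0635). Neither overlapped between groups, and neither passed.

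Cd68, a lysosomal glycoprotein of macrophages, had 5.09, 4.88 and 5.51 against 4.68, 4.44, 4.78 and 4.88, a difference of 0.46 (adjusted p = 0.0762). Ptprc, which encodes the leukocyte antigen CD45, had 3.47, 3.69 and 4.62 against 2.91 to 3.47, a difference of 0.67 (SE 0.26, adjusted p = 0.116). Knockout 2 touched the wild type range of Cd68 and knockout 1 that of Ptprc. Fcgr3, an activating IgG receptor gene, ran the other way at 8.04, 8.73 and 8.38 against 9.01, 8.89, 9.04 and 8.46, a difference of −0.47 (SE 0.18, adjusted p = 0.117). Wild type 4 lay among the knockouts. Aif1, an actin-binding protein gene also called Iba1, differed by −0.17 (adjusted p = 0.18), at 10.80 to 10.93 in knockout and 10.87 to 11.17 in wild type. Its signal was the highest of all members, and which cells gave it was not tested.

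The choice of probe set mattered for 9 of the 17 members that have several, whose probe sets differed by over 0.5 in log2 difference. Counted separately, the sign differed in 7 of the 17, among them Fcgr1 and Msr1, whose ranges were smaller. Laptm5, a lysosomal membrane protein gene of leukocytes, differed by −0.06 at its brightest probe set, with 5.56 to 5.95 on all arrays. Another probe set of Laptm5 had 5.41, 5.23 and 6.32 in knockout and 4.50 to 4.76 in wild type, a rise of 1.03 (SE 0.23, limma adjusted p = 0.0333 over all 45101 probe sets). Its knockout arrays lay clear of wild type, and its 3 remaining probe sets gave −0.05 to 0.14. Fcgr2b, the inhibitory IgG receptor gene, differed by 0.22 at its brightest probe set (adjusted p = 0.208). Another had 5.75, 4.93 and 5.97 against 4.67, 4.15, 4.36 and 4.93 and rose by 1.02 (SE 0.26, adjusted p = 0.0486). Knockout 2 and wild type 4 were equal there.

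In that fit of all probe sets, 7 of the members' 69 probe sets rose and 0 fell, where 5.61% of all probe sets rose and 2.89% fell. They belonged to 6 genes: Lyz1 with 2, Lyz2, C1qc, Cd53, Laptm5 and Fcgr2b. Csf1r, C1qa, Mrc1 and Cd74 did not pass when adjusted over all probe sets (adjusted p = 0.0555 to 0.0686).

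**Figure D3:**
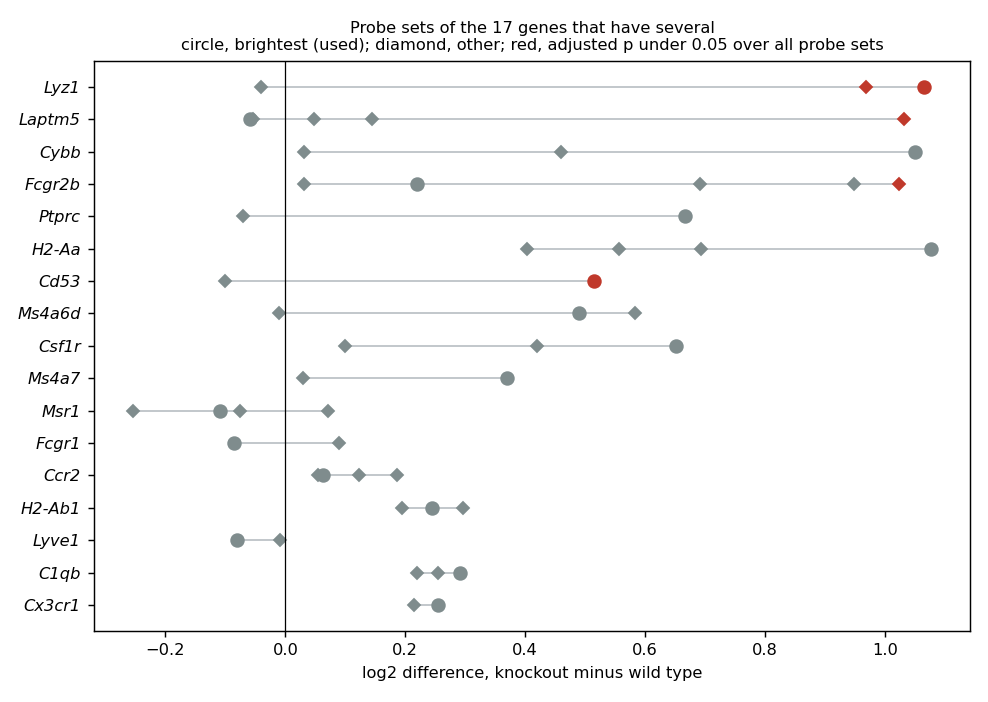
Log2 difference between knockout and wild type (horizontal axis) at each probe set of the 17 macrophage genes with more than 1. Circles are the brightest probe set of a gene and diamonds the others, and in Laptm5 and Fcgr2b a diamond rose while the circle did not.

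The arrays of each group were not alike. For each gene the wild type mean was subtracted, and the median over the 34 genes was 0.31 in knockout 1, 0.08 in knockout 2 and 0.67 in knockout 3. In wild type 1 to 4 it was −0.01, −0.10, 0.07 and 0.04. Knockout 3 was thus the highest and knockout 2 lay close to wild type 3. Knockout 3 was the single highest array for 24 members (70.6%), as it was for 16.4% of all genes, and wild type 2 was the single lowest for 16 members, as it was for 20.3% of all genes. Over all genes the same medians ran from −0.04 to 0.01. In antigen presentation genes the medians were 0.46, 0.42 and 1.34 in the knockout arrays and −0.41 to 0.35 in wild type.

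**Figure D4:**
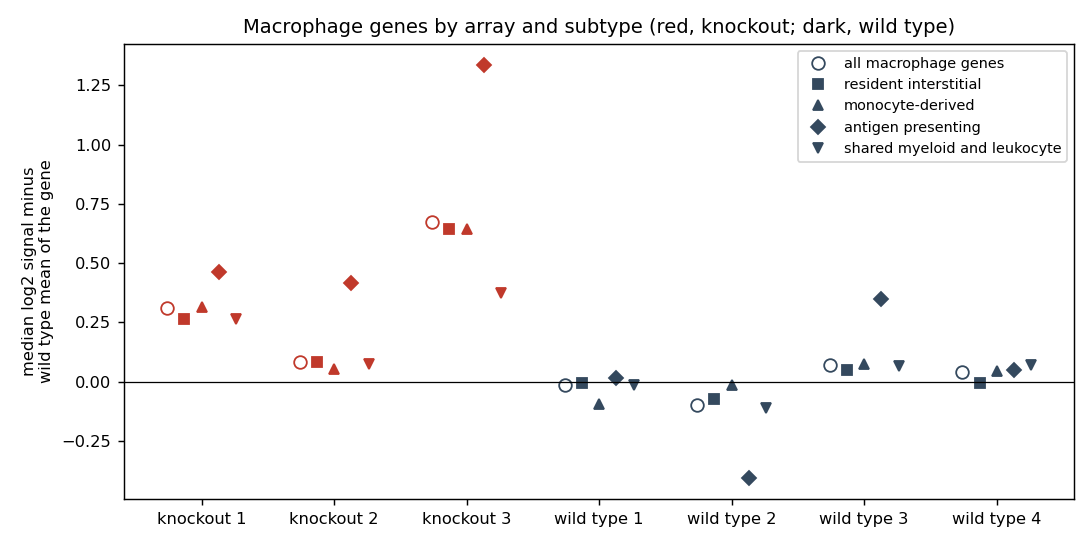
Median over genes of the log2 signal minus the gene's wild type mean (vertical axis) for each array, for all 34 macrophage genes (open circles) and for each role. Knockout 3 was highest in every role, and knockout 2 was at 0.055 to 0.08 in all roles other than antigen presentation.

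Of the 3 sets formed by the leading digits of the title numbers, the first holds knockout 1 and wild type 1, the second holds the arrays numbered 2 together with wild type 3, and the last holds knockout 3 and wild type 4. Within these sets the members' median log2 difference was 0.345, 0.145 and 0.645, with 27, 22 and 29 of 34 above 0, where the median over all genes was −0.03 in each. With the sets as a block, 6 members rose (7.71% of all genes), 3 of them among the 8 above: Lyz1, Lyz2 and Cd53. Cd163 (0.48, adjusted p = 0.0406), Cybb (1.02, adjusted p = 0.0280) and Tyrobp (0.49, adjusted p = 0.0364) joined them. The other 5 of the 8, all with adjusted p given above, did not pass with it.

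Leaving out other arrays moved the count too. Without knockout 1 it was 2 (Cd53 and Lyz2), where 4.05% of all genes rose. Without wild type 1 it was 1 (Lyz2), where 2.93% rose, and without wild type 2 it was 2 (Lyz1 and Lyz2), where 5.27% rose. Without wild type 4 it was 3 (Cd53, Lyz1 and Lyz2), where 7.88% of all genes rose. In all of the fits just named the share of members lies near that of all genes. Without wild type 3 it was 7 (Mrc1 lost), where 8.38% of all genes rose. Without knockout 2 it was 13, where 7.09% of all genes rose, with Cd163, Cd68, Fcer1g, Fcgr2b, Ms4a6d and Ms4a7 added to the list and Cd53 lost. All members that passed in these fits were higher in knockout.

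Signals that macrophages respond to, and the factors that make them, were mostly not past the threshold. Of 13 measured Csf1r ligands, related receptors and myeloid transcription factors, 2 rose (15.4%, against 9.07% of all genes) and 0 fell. They were Maf, a transcription factor gene of resident macrophages, with 6.88, 6.35 and 7.32 against 5.54 to 6.09 (1.07, SE 0.215, limma adjusted p = 0.0181), and the cytokine receptor gene Csf2ra (0.31). In Maf the knockout arrays stood clear of wild type. The ligand genes Csf1 (0.01) and Il34 (−0.31, adjusted p = 0.0917) and the PU.1 gene Spi1 (0.01) were looked at after the values were seen and did not pass. Of 19 chemokine genes, only Cxcl12, which stromal and Sertoli cells also make, rose (0.98, adjusted p = 0.0443), and its groups overlapped. Of 12 genes of inflammatory and alternative activation, only Tgfb1 rose (0.59, adjusted p = 0.0303). The shares that rose, 5.26% of chemokine and 8.33% of activation genes, did not exceed the 9.07% of all genes.

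Several genes of engulfment and complement rose, 41.2% of the scavenger list and 50% of the complement list, against 9.07% of all genes. Of 17 scavenger and efferocytosis genes 7 rose and 0 fell, led by Mertk (0.99, SE 0.07, limma adjusted p = 0.00140), its ligands Gas6 (0.52) and Pros1 (0.58) and its relative Tyro3 (0.75). Mertk had 6.90, 6.78 and 6.94 against 5.78 to 5.95, and the groups lay far apart. Mertk, Axl and Tyro3 also serve Sertoli cells, which clear dying germ cells. Axl (0.72), the fatty acid transporter gene Cd36 (1.00) and Apoe (0.68) rose too. The other 10 did not pass, and of all 17, 12 were higher and 5 lower, the lowest at −0.26. Of 8 measured complement genes besides C1q, 4 rose: the inhibitor gene Serping1 (0.90), the proteases C1ra (0.68) and C1s1 (0.64), and C2 (0.51). The other 4 did not pass, and of the 8, 6 were higher and 2 lower, the lowest at −0.07. Which cells made the RNA of these lists was not tested.

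Of 11 genes of class II loading and costimulation, the proteases Ctss (1.11, SE 0.26, limma adjusted p = 0.0260) and Lgmn (0.73, SE 0.12, adjusted p = 0.0129) rose and 0 fell. That was 18.2% of the list, where 9.07% of all genes rose. Ctss had 7.86, 7.39 and 8.53 against 6.54 to 7.12, and Lgmn 9.03, 8.98 and 8.98 against 7.97 to 8.52. Knockout 3 was the highest array for Ctss but not for Lgmn. Of 14 genes of the phagocyte oxidase and phagosome, 3 rose (21.4%): Mpeg1, a pore-forming protein gene of macrophages (0.64, adjusted p = 0.0333), Gpr34 (0.70) and the oxidase subunit gene Cyba (0.525, adjusted p = 0.0445). Without knockout 3, Mertk alone still passed by limma among the genes of these 7 lists, and the scavenger list kept a median log2 difference of 0.43 (0.52 with all arrays).

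Markers of several other cells of the testis also differed between the genotypes. Of all genes tested, 9.07% rose and 7.05% fell. The mean log2 signal over the 34 macrophage genes was 6.10 to 6.62 in knockout and 5.81 to 6.03 in wild type. Over 5 Leydig cell genes it was 9.41 to 9.91 against 8.61 to 9.09, and 3 rose (Cyp11a1, Cyp17a1 and Nr5a1). Over 8 Sertoli cell genes it was 8.04 to 8.21 against 7.50 to 7.82, and 6 rose, the 4 of smallest p being Rhox5, Wt1, Clu and Amhr2. Over 6 fibroblast genes it was 7.03 to 7.09 against 6.20 to 6.71, and 4 rose (Dcn, Col1a2, Col3a1 and Pdgfra). Over 6 contractile genes it was 7.38 to 7.75 against 7.06 to 7.22, and Acta2 and Myl9 rose. Over 8 germ cell genes it was 11.99 to 12.11 against 12.12 to 12.17, and Spata16 fell by 0.32. By array, the median deviation from the wild type mean in knockout 1 to 3 was 0.31, 0.08 and 0.67 for the macrophage genes. It was 0.61, 0.43 and 0.65 for Sertoli cell genes and 0.49, 0.58 and 0.76 for Leydig cell genes, also highest in knockout 3. It was 0.16, 0.69 and 0.24 for contractile genes and 0.67, 0.64 and 0.67 for fibroblast genes. The median log2 difference was 0.61 for Leydig, 0.59 for Sertoli, 0.68 for fibroblast and 0.38 for contractile genes, against 0.37 for macrophage genes. Of the germ cell genes 1 was higher and 7 were lower. A log2 array signal is never 0, so no marker was absent in that sense. Without knockout 3, of the genes that rose in these lists only Cyp11a1, Rhox5, Wt1, Acta2 and Myl9 passed. The part of these other cells in the macrophage result was not tested.

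Markers of other immune cells did not pass the test. By limma 0 of 9 T and NK cell genes, 6 B and plasma cell genes, 8 neutrophil genes, 6 mast cell genes and 6 dendritic cell genes passed, with median log2 differences of −0.10, −0.03, −0.01, 0.04 and 0.02. The mean signal over the T and NK genes was 4.59 to 4.63 in knockout and 4.66 to 4.72 in wild type. Before adjustment, 2 T and NK cell genes and 1 mast cell gene were lower at p under 0.05, and 0 were higher in any of these lists. All but 1 B cell gene were below the median of genes tested, so low signals limit what these lists can show. By limma 0 of 7 endothelial genes (median 0.10) and 0 of 2 red cell genes passed, and 0 were past an unadjusted p of 0.05.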

How the data were processed

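Total RNA of whole testis was extracted with Trizol, labelled with biotin and hybridised to Affymetrix arrays, per the labels. The authors deposited 1 table of log2 signals, rounded to 2 decimals, for 45101 probe sets. The log2 scale was read from the range, 1.59 to 13.92. The submitters' processing notes name Expression Console 1.4.1 of Affymetrix as the tool, and background correction and normalization are not given in the sources used here. Arrays give no read depth, and their number limits precision. The median SE of a log2 difference was 0.0843 over all genes and 0.151 over the members.

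Symbols came from the platform's annotation: 34958 probe sets had 1 symbol, 932 several and 9211 none there. Groups came from the genotype. All 18194 genes were fitted with limma 3.58.1 in R 4.3.3 (lmFit, eBayes, two-sided), Benjamini-Hochberg adjusted, threshold 0.05. Differences are knockout minus wild type; rose and fell mean past that threshold. Chromosomes are from RefSeq GRCm38.p6. The fit was tested on simulated data.

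The members, roles and lists were chosen with earlier results of these data known. All members are named; of other lists, those past the threshold, or the 4 of smallest p where over 4 passed, plus others as said. Of the 7 scavenger and efferocytosis genes that rose, Axl, Cd36 and Apoe were named after their values were seen. The arrays' deviations from their group means correlated at 0.103 to 0.319 for the 4 knockout and wild type pairs in the same title-number set. For all other pairs they correlated at 0.0227 or less. By the data, and not by a label, these sets thus pair the arrays. The main fit and the exact permutations ignore this pairing, and only the alternative with the title-number sets as a block uses it. Alternatives were median centring, quantile normalization, a filter on dim genes, the mean of a gene's probe sets, trend and robust settings, 2 blocks and leaving out each array. The fit of all probe sets and the fit without both knockout 3 and wild type 4 were added after the data were seen.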

Additional observations from a re-analysis of the deposited data

Results flagged for a closer look

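In 4 genes of the 71 examined, 3 of them macrophage genes, 1 wild type array stood apart from the other 3 by Dixon's criterion, which divides the gap to the nearest array by the range. Chance alone marks about 1 group in 20 where values do not tie, and 4 of 71 lies near that rate. Tied readings raise the ratio, and each of the 4 genes had them among the other wild type arrays. For C1qb the ratio was 1.00, with wild type 2 at 7.28 and the others at 7.59. For Ccr2 it was 0.944, with wild type 2 at 5.69 and the others at 5.86 to 5.87. For Cd14 it was 0.909, with wild type 1 at 5.19 and the others at 5.39 to 5.41. For C1s1 it was 0.885, with wild type 2 at 5.36 and the others at 5.82 to 5.88.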

How the results depend on the processing

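The median log2 difference of the macrophage genes stayed positive in all 15 alternatives. The number past the threshold was 8 with median centring (8.51% of all genes rose), with trend and robust settings (10%) and without the dimmest genes (14.9%). It was 5 with quantile normalization (8.85%), 6 with the title-number sets as a block (7.71%) and 0 to 13 with 1 array left out (0.528% to 8.38%). With the mean of a gene's probe sets it was 6 (8.27%): Laptm5 passed, and Csf1r, C1qa and Cd53 did not (limma adjusted p = 0.0509 to 0.0526). Their median was 0.28 without the dimmest genes, where 24 members remained, 0.28 with the mean of probe sets and 0.24 to 0.46 with 1 array left out. Over all genes the count was 175 to 2574 with 1 array left out. Without knockout 3 and wild type 4 together, 4 genes and 0 members passed by limma, with a median of 0.23. Replicate numbers did not pair the arrays, unlike the title-number sets: deviations of same-numbered arrays correlated at 0.182, 0.103 and −0.143. With this replicate block 13 members passed (8.98% of all genes rose). The sign turned for Fcgr1 (0.0021) and Laptm5 (0.22, adjusted p = 0.0313) with the mean of probe sets and for H2-Ab1 (−0.0133) without both arrays. With 1 array left out the ranges were −0.12 to 0.0067 for Laptm5, −0.0225 to 0.39 for H2-Ab1 and −0.04 to 0.16 for Ccr2. Causes were not tested.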

Other observations

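Cd52, Ptgs2 and Ltf, of the phagosome, activation and neutrophil lists, were high in 1 or 2 arrays only. Cd52, which encodes a surface protein of leukocytes and epididymal epithelium, read 10.62 in knockout 2 and 7.63 in wild type 3, and 4.24 to 5.12 in the other 5 arrays. The prostaglandin synthase gene Ptgs2 read 6.54 in knockout 2 and 2.27 to 2.44 elsewhere. The lactoferrin gene Ltf read 7.44 in knockout 2 and 4.13 to 4.58 elsewhere. None passed limma's threshold (adjusted p = 0.285 to 0.427), and knockout 2 was the array with the smallest differences in the macrophage genes.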
